A study of Mus musculus with 5 samples.

Results

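A population of T cells was examined in lung tumors of a small cell lung cancer (SCLC) mouse model. The cells carried transcripts of survival, migration or exit genes, and none of a chosen set of transcripts of immature, dividing or effector T cells. The cells were chosen by their own measured values in the anti-PD-1 library and in the library labelled Mubritinib + aPD-1 in response. Each cell had at least 1 unique molecular identifier (UMI, a tag that marks a single captured RNA molecule) of Cd3e, Cd3d or Cd3g, which encode the T cell receptor's signaling chains. It also had at least 1 UMI of Il7r, Ccr7, S1pr1 or Klf2, genes of survival, of migration and of exit from the thymus or lymph node. It had 0 UMIs of Rag2, Dntt and Ptcra (receptor gene assembly), Mki67 (division), and Ccl5 and Nkg7 (effector cells). They are called egress-gene cells after Il7r, Ccr7, S1pr1 and Klf2 as a set, and members in the plots. The name does not mean that each cell had the exit receptor, since S1pr1 was found in 85 cells of each library. They numbered 1067 of 85291 cell barcodes that passed the gene and mitochondrial filter, out of 86735 deposited. There were 503 in anti-PD-1 and 564 in combination in response.

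All animals, of both sexes and with C57BL/6 background, carried Rb1 fl/fl and Trp53 fl/fl alleles, which adenoviral Cre inhaled into the lung deletes in the cells it infects, and tumors grew for about 6 months. The 5 groups were vehicle (phosphate-buffered saline), anti-PD-1, the ERBB2 inhibitor mubritinib (ERBB2i), the combination of both agents, and the combination in response, each agent being given at 10 mg/kg every 3 days. Each group is 1 library, so no difference between groups has a replicate check and no test or p-value is given. Erbb2, the target of mubritinib, was listed at 0 in the egress-gene cells of both libraries.

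In the thymus, double-positive thymocytes bear both the CD4 and the CD8 coreceptor and test their T cell receptor against peptides on major histocompatibility complex (MHC) molecules. Cells that receive a suitable signal become single-positive for CD4 or CD8, lower the genes of the double-positive stage, raise MHC class I, and finally gain S1PR1, the sphingosine 1-phosphate receptor through which they leave. Mature naive T cells in blood, lymph node and tumor share S1PR1, KLF2, CCR7 and the interleukin-7 receptor, so these transcripts alone do not tell a thymocyte from a recirculating cell.

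Levels are CPM, the UMIs of a gene divided by all UMIs of a pool of cells and multiplied by 1000000, with an exact 95% Poisson interval, and differences are log2 ratios with an exact conditional 95% interval. Intervals cover counting error only. A gene was called past the fold when the log2 ratio was at least 1 in size with an interval that left out 0, among genes with at least 50 UMIs over both pools. A pool at 0 was set to the limit of 3 counts.

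The libraries held 21624506 to 88497833 UMIs. The egress-gene cells had a median of 1165 UMIs (range 503 to 12700) in anti-PD-1 and 1778 (500 to 12574) in combination in response, and pools of 696882 and 1101743 UMIs. Barcodes with a Cd3 UMI and a UMI of Rag2, Dntt or Ptcra made up 58.2% of the Cd3-positive barcodes in anti-PD-1 and 73.1% in combination in response, against at most 0.997% in the other 3 libraries. Anti-PD-1 and combination in response shared 79 barcodes, none of them among the egress-gene cells. Tumor cells, with at least 5 UMIs of neuroendocrine genes, made up 25.5% of barcodes in anti-PD-1 and 0.0199% (2 cells) in combination in response.

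The genes of MHC class I set these cells apart from double-positive-like cells, as described further on, so the proximal promoters of the heavy chains H2-K1, H2-D1 and H2-Q7 and of their light chain B2m are shown. Sequences are from RefSeq on GRCm38.p6, the assembly also called mm10, and run 5′ to 3′ on the strand of the gene. Capitals mark GGGGATTCCC (a kB motif), TGACG (the core of the X2 box), and in B2m the core of an interferon-stimulated response element, which is GAAA, any 2 bases and GAAA again.
H2-K1, chr17:34000372-34000470, minus strand, from -123 to -25: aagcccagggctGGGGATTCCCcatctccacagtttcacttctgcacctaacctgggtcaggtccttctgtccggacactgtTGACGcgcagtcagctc
H2-D1, chr17:35262911-35263009, plus strand, from -183 to -85: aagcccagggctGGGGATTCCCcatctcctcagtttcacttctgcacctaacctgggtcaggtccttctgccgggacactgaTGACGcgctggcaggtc
H2-Q7, chr17:35439010-35439107, plus strand, from -145 to -48: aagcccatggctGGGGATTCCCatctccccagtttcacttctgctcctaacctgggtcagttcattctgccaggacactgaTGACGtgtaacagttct
B2m, chr2:122147536-122147625, plus strand, from -151 to -62: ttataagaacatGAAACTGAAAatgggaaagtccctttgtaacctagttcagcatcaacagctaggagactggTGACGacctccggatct

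Positions are counted from the transcript start that RefSeq gives. On both strands, GGGGATTCCC was found in 35 of 32851 promoters of 300 bases (0.107%), and among 7 class I pathway promoters in H2-K1, H2-D1 and H2-Q7. The motif had been read from the H2-K1 promoter itself, so the match there was fixed in advance. H2-D1 and H2-Q7 are paralogs with closely alike promoters, so their matches are not independent, and no enrichment is read from these counts. TGACG was found in 20.8% of all promoters and in 6 of these 7. The response element core was found in 3.44% and, of the 7, in B2m. Only this exact pattern was searched, so other forms of the element in the other promoters were not looked for. A match describes the letters and not binding.

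The label of maturing single-positive thymocyte-like cells was compared with its markers. Itm2a, a membrane protein that T cells raise after positive selection, stood at 1356 CPM (1271 to 1445) in anti-PD-1 and 1795 (1717 to 1876) in combination in response. Cd2, an adhesion receptor, stood at 1346 (1261 to 1435) and 1057 (998 to 1120). Cd5, a brake on T cell receptor signaling whose level follows the strength of selection, stood at 409 (363 to 459) and 568 (525 to 614). All 3 were outside the rule and above their levels in double-positive-like cells of the same library. Of the markers that the rule used, Il7r was found in 189 and 271 of the cells, Ccr7 in 201 and 216, S1pr1 in 85 and 85, and Klf2 in 269 and 341. The tissue is labelled as tumor, and its anatomical origin beyond that was not tested.

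The word single-positive could be checked in part. Of the 503 cells of anti-PD-1, 124 (24.7%) had UMIs of Cd4 and none of Cd8a or Cd8b1, 96 (19.1%) had the reverse, 28 (5.57%) had both and 255 (50.7%) had neither. Of the 564 cells of combination in response, the numbers were 146 (25.9%), 137 (24.3%), 86 (15.2%) and 195 (34.6%). These classes rest on single UMIs, and B cells, which should lack both coreceptors, had a Cd8b1 UMI in 5.24% of 572 cells in anti-PD-1 and 18.4% of 38 cells in combination in response (2.62% and 2.63% after thinning to 500 UMIs), and a Cd4 UMI in 1.05% and 5.26%. These B cell shares are for each coreceptor alone and give no background for cells with both. Whether the egress-gene cells with both include double-positive cells was therefore not tested, nor is their difference between libraries read. Over all egress-gene cells, Cd8b1 was found in 19.5% and 30.1% (11.7% and 12.6% thinned) and Cd4 in 30.2% and 41.1% (17.5% and 17.2% thinned). For Cd8b1 in combination in response, the thinned share of the 38 B cells has an interval up to 13.8%, so that background and expression are not separated there. Among cells with UMIs of a single coreceptor, those with Cd4 made up 56.4% (49.5% to 63.0%) in anti-PD-1 and 51.6% (45.6% to 57.5%) in combination in response (exact Clopper-Pearson intervals). With each cell thinned to 500 UMIs before the rule, these shares were 44.1% and 31.0%, so no order of the lineages is read from them.

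The rule is set by few molecules. In anti-PD-1, 190 of the cells had exactly 1 egress-gene UMI and 61 exactly 1 Cd3 UMI, and in combination in response 161 and 69. Just outside, 107 and 171 barcodes missed the rule by 1 UMI of an excluded gene, of which Dntt accounted for 43 and 98. A further 1034 and 1400 Cd3-positive barcodes had none of the excluded transcripts but no egress-gene UMI, and 346 and 85 had an egress-gene UMI but no Cd3 UMI. A mitochondrial share from 7% to 8% was seen in 3 and 8 of the cells, and 2 and 2 barcodes lay between 8% and 10%. The cells made up 8.25% (7.58% to 8.97%) of the Cd3-positive barcodes of anti-PD-1 and 6.57% (6.06% to 7.12%) of those of combination in response.

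Other cell types were present in part of the cells. Of B cell and plasma cell genes, 38 cells in anti-PD-1 and 17 in combination in response had at least 2 UMIs, and of neuroendocrine genes 30 and 5. The summed level of 5 B cell genes was 495 and 265 CPM, of 8 myeloid genes 251.1 and 904, of 4 endothelial and fibroblast genes 476 and 186, of 4 erythroid genes 37.3 and 207, of 7 neuroendocrine genes 257 and 32.7, and of 5 NK cell genes 61.7 and 55.4. The 7 thymic stroma genes summed to 20.1 and 20.9, with Foxn1, Krt5, Ccl19 and Ccl21a at 0, but T cells do not express these genes, so the values do not bear on whether thymus was in the sample. A Foxp3 UMI, the mark of regulatory T cells, was found in 10 and 3 cells, a Trdc UMI, of the delta chain of the other T cell lineage, in 18 and 38, and a granzyme, perforin (Prf1) or Ifng UMI in 23 and 25. Results that changed without the 40 and 21 cells with at least 2 UMIs of B and plasma, macrophage or fibroblast genes are given both ways.

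The egress-gene cells were first set beside double-positive-like cells of the same library, which had Cd3, Cd4 and Cd8 UMIs, a UMI of Rag2, Dntt or Ptcra, and none of Mki67 or the egress genes (512 cells in anti-PD-1 and 2602 in combination in response). The rule keeps these pools apart, so the values describe the cells and were not tested. Of 4397 genes compared, 257 (5.84%) were higher and 293 (6.66%) were lower in the egress-gene cells past the fold in both libraries. The median log2 ratio over all genes was -0.17 in anti-PD-1 and -0.10 in combination in response.

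Genes induced by positive selection were higher. Of 10 compared, 8 were past the fold, namely Cd2, Cd5, Cd69, Egr1, Itm2a, Nab2, Nr4a1 and Tox, and the median log2 ratios were 2.87 and 2.07. Itm2a was at 65.2 and 88.4 CPM in double-positive-like cells, giving log2 ratios of 4.38 (3.90 to 4.90) and 4.34 (4.17 to 4.52). Cd3-positive cells with a Ccl5 or Nkg7 UMI, and none of Rag2, Dntt, Ptcra or Mki67, lay between, with Itm2a at 289 and 433 CPM. Cd5 had log2 ratios of 2.30 (1.84 to 2.78) and 1.75 (1.58 to 1.91). Tox, a nuclear factor needed for the CD4 lineage, had 1.30 and 1.17. Cd69, an early activation antigen that holds cells in the tissue, was at 184 and 300 CPM against 16.3 and 81.3. Id3, an inhibitor of E proteins and a target of receptor signals, was not past the fold, at 0.30 and 0.12.

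The cells with an Itm2a UMI were also counted. After thinning to 500 UMIs per cell, 30.2% (26.2% to 34.4%) of the egress-gene cells of anti-PD-1 and 36.9% (32.9% to 41.0%) of those of combination in response had an Itm2a UMI, and 40.6% and 56.6% before thinning. Among double-positive-like cells, with median depths of 922.5 and 1243 UMIs, the thinned shares were 2.54% and 2.65%. B cells, which lack the T cell program, served as background, with 0.35% of 572 cells in anti-PD-1 (median 1259.5 UMIs) and 0 of 38 cells in combination in response (median 2614 UMIs). No cell of either pool was too shallow to be thinned.

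MHC class I stood far above the double-positive-like level. H2-K1, a classical heavy chain on chromosome 17, was at 2907 (2782 to 3037) and 1944 (1863 to 2028) CPM against 150 and 90.03, with log2 ratios of 4.27 (3.96 to 4.61) and 4.43 (4.26 to 4.61). The other classical heavy chain, H2-D1, had log2 ratios of 2.59 and 2.82, and the light chain B2m had 2.06 and 2.31. Tap1, a subunit of the peptide transporter, had 2.16 and 1.41, while its partner Tap2 had -1.21 and -0.36. Of the 6 class I genes compared, 4 were past the fold in both libraries, with medians of 2.11 and 1.86. H2-Q7, of the nonclassical Q region, had 4.25 and 5.55. Class I heavy chains are near-identical paralogs, so the split of reads among them is uncertain.

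**Figure D1:**
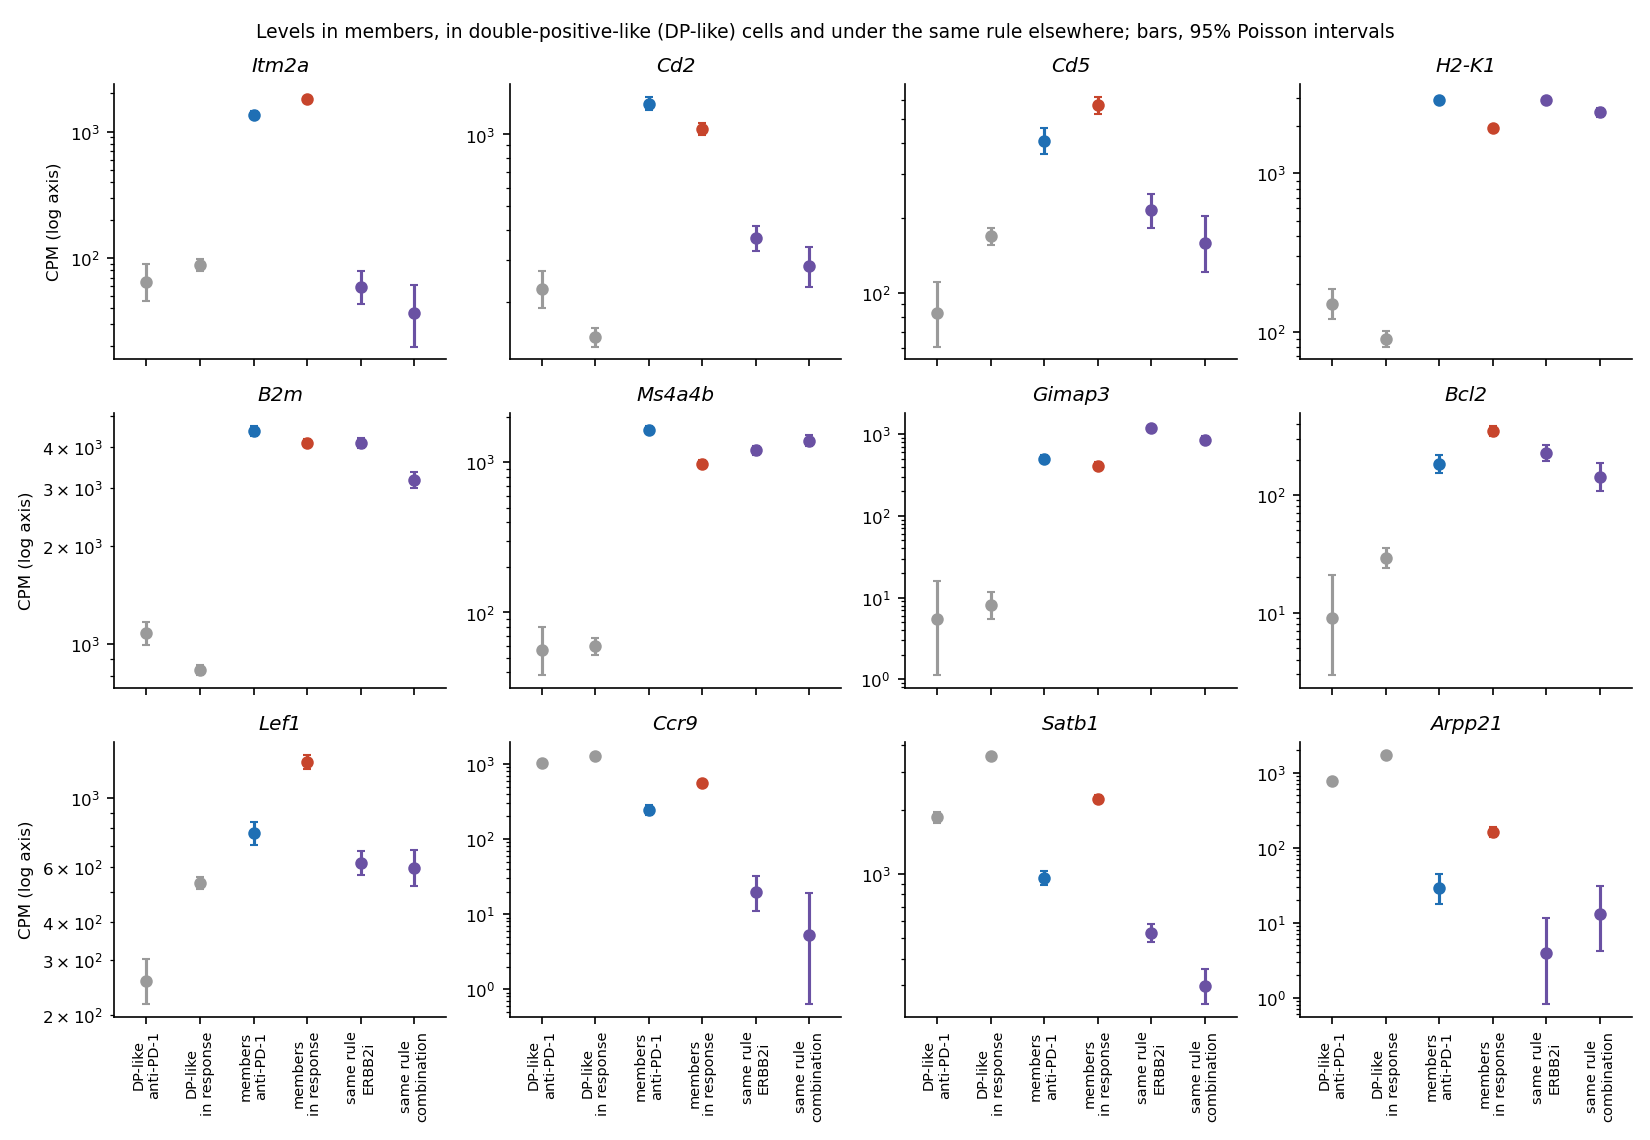
Levels of 12 genes in CPM on log axes, each panel a gene, with 95% Poisson intervals, in double-positive-like cells (gray), in the egress-gene cells of the anti-PD-1 library (blue) and of combination in response (red), and under the same rule in ERBB2i and combination (purple). Itm2a was at 1356 and 1795 CPM in the egress-gene cells and at most 88.4 in the other pools shown, whereas H2-K1, at 1944 to 2907, was high wherever the rule was applied. T cells with a Ccl5 or Nkg7 UMI are not shown.

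Genes of late maturation were higher as well. Of 14 compared, 8 were past the fold (Bcl2, Cd52, Foxo1, H2-Q7, Itgb7, Lef1, Ms4a4b and Ms4a6b), with medians of 1.504 and 1.265. Ms4a4b, a tetraspanning membrane protein of mature T cells, was at 1652 and 971 CPM against 56.1 and 59.5. Bcl2, which protects from cell death, was at 185 and 350 against 9.05 and 29.2. Lef1, a partner of TCF-1, was at 772 and 1315 against 257 and 534. Of the Gimap genes, small GTPases that keep T cells alive, Gimap3, Gimap4 and Gimap8 were past the fold of 5 compared, and Gimap3 was at 501 and 410 CPM against 5.43 and 8.13. Zbtb7b, which encodes the CD4 lineage factor ThPOK, was at 268 and 199 against 3.62 (2 UMIs) and 3.65.

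The genes of the double-positive stage were lower, 6 of 9 past the fold, among them Aqp11, Arpp21, Ccr9, Cd24a and Tcf12, with medians of -2.06 and -1.32. Arpp21 was at 28.7 and 163 CPM against 762 and 1695. Ccr9, the receptor for the thymic and gut chemokine CCL25, was at 245 and 562 against 1025 and 1295. Satb1, a chromatin organizer, was at 959 and 2240 against 1839 and 3556, which missed the fold with log2 ratios of -0.94 and -0.67. Rag1 was listed at 0 in every library, also where Rag2 had 2107 and 4970 UMIs, so it was not read. Receptor genes moved unevenly, since Trac had log2 ratios of 0.78 and 0.66 while Trbc1 had -1.49 and -0.97. Themis, a signaling adaptor of selection, was the only gene of 13 in the receptor complex and signaling list past the fold, at -2.49 and -2.21.

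Interferon-induced genes were higher in 10 of 12 cases, with medians of 2.05 and 2.71, and Ifi27l2a had log2 ratios of 3.35 and 5.23. Ly6a had 4.51 and 5.29 with all cells, and 3.65 and 4.66 without the cells that carried UMIs of other cell types. Without those cells, the ratios of Itm2a (4.54 and 4.46), H2-K1 (4.23 and 4.40) and Ms4a4b (5.05 and 4.14) were of like size, and 233 genes were higher and 273 lower.

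The egress-gene cells were then split by UMIs of S1pr1 or Klf2. The split rests mostly on Klf2, found in 269 and 341 cells, against 85 and 85 with S1pr1. A UMI of S1pr1 or Klf2, the factor that switches S1pr1 on, was found in 303 cells of anti-PD-1 and 356 of combination in response, and 200 and 208 cells were members through Il7r or Ccr7 alone. Of 2489 genes, 40 (1.61%) were higher in the cells with S1pr1 or Klf2 past the fold in both libraries and 8 (0.321%) were lower, and 17 and 8 without the cells that carried UMIs of other cell types. The medians over all genes were -0.06 and -0.04. The 8 lower genes were Itm2a, Ccr9, Bcl2, Izumo1r, Tfrc, Lztfl1, Ckb and Il7r, of which Il7r served in the rule.

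Itm2a was at 517 CPM in cells with S1pr1 or Klf2 and 2690 in cells with neither in anti-PD-1, a log2 ratio of -2.38 (-2.60 to -2.16). In combination in response it was at 935 and 3361, a log2 ratio of -1.85 (-1.98 to -1.71). After thinning, 21.1% and 26.7% of cells with S1pr1 or Klf2 had an Itm2a UMI, against 44.0% and 54.3% of cells with neither. The order was the same in both libraries, at like median depths (1181 and 1120 UMIs in anti-PD-1, 1780.5 and 1778 in combination in response). By the rule, all cells with neither had Il7r or Ccr7. Il7r was found in 64.5% and 75.0% of them, against 19.8% and 32.3% of the others. The part of this choice in the ratios was not tested, and it is the same in both libraries. Ccr9 was at 98.2 against 479 CPM in anti-PD-1 and at 370 against 911 in combination in response. Bcl2 had log2 ratios of -1.19 and -1.53. Izumo1r, the folate receptor 4 of CD4 T cells, had -1.10 and -1.43, and Tfrc, the transferrin receptor, had -1.07 and -1.90. Cd69 had -1.12 and -0.93, Satb1 -1.31 and -0.67, and Lef1 -0.92 and -0.67, and each was past the fold in at most 1 library.

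Genes of the mature naive state lay on the other side. Ms4a4b was at 2104 against 932 CPM in anti-PD-1 and at 1316 against 343 in combination in response, log2 ratios of 1.17 (0.97 to 1.38) and 1.94 (1.68 to 2.21). Ms4a6b, its relative, had 1.23 and 2.08. Gimap3 had 1.43 and 1.27. Of 14 maturity genes, 3 were higher past the fold, among them Ms4a4b and Ms4a6b, and 1 was lower (Bcl2). H2-K1 was at 3343 against 2214 in anti-PD-1, a log2 ratio of 0.59, and at 2413 against 1090 in combination in response, a ratio of 1.15. None of the 6 class I genes was past the fold in both libraries, and 5 of 6 lay above 0 in both. Ly6a had 1.51 and 2.01, and 1.20 and 1.30 without the cells with UMIs of other cell types. All 3 B cell genes compared (Cd79a, Cd79b and Ms4a1) were higher in the cells with S1pr1 or Klf2. Without those cells the ratios of Itm2a were -2.29 and -1.74 and those of Ms4a4b 1.36 and 2.06.

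**Figure D2:**
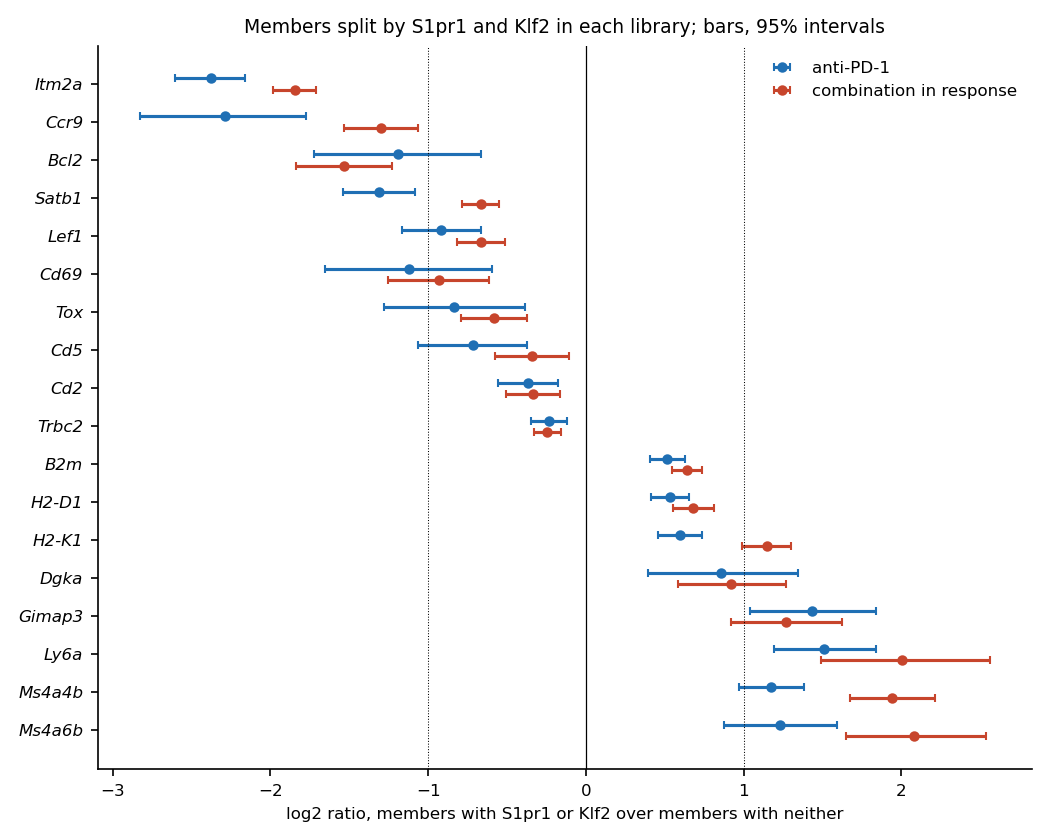
Log2 ratio of cells with an S1pr1 or Klf2 UMI over cells with neither, for 18 genes, in anti-PD-1 (blue) and combination in response (red), with 95% intervals and dotted lines at the fold of 1. Itm2a, Ccr9 and Bcl2 lay below -1 and Gimap3, Ly6a, Ms4a4b and Ms4a6b above 1 in both libraries.

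The cells with UMIs of a single coreceptor were compared next, 124 Cd4-only against 96 Cd8-only cells in anti-PD-1 and 146 against 137 in combination in response. Of 944 genes, 6 (0.636%) were higher in Cd4-only cells and 8 (0.847%) in Cd8-only cells past the fold in both libraries, counts that include Cd4, Cd8a and Cd8b1, which made the split. The medians over all genes were 0.11 and 0.06.

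Higher in Cd4-only cells were Itm2a, Zbtb7b, Tnfrsf4, Izumo1r and Rpl3. Zbtb7b, the factor that commits cells to the CD4 lineage, was at 367 CPM against 98.7 in anti-PD-1 and at 284 against 106 in combination in response, log2 ratios of 1.89 (1.01 to 2.89) and 1.42 (0.79 to 2.10). Itm2a was at 2245 against 722 and at 2440 against 745, log2 ratios of 1.64 (1.31 to 1.98) and 1.71 (1.48 to 1.95). The Cd4-only cells were thus higher in each library, and the Cd8-only cells still stood above the double-positive-like level. With thinned cells, 41.1% and 48.6% of Cd4-only cells had an Itm2a UMI, against 16.7% and 21.9% of Cd8-only cells.

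Tnfrsf4, the costimulatory receptor OX40, had 62 and 10 UMIs in anti-PD-1, a log2 ratio of 2.39 (1.42 to 3.52), and 49 and 1 in combination in response, a ratio of 5.42 (2.88 to 10.75). Izumo1r had ratios of 2.38 (1.58 to 3.27) and 1.12 (0.43 to 1.85). Rpl3, a ribosomal protein, had 1.02 and 1.04 with all cells and 0.94 and 0.87 without the cells with UMIs of other cell types. The other 4 were past the fold both ways, but with at least 2 egress-gene UMIs required, Izumo1r had 0.54 in combination in response, and 0.72 with each cell weighted equally. With that requirement 2 genes in all were higher in Cd4-only cells past the fold, and 3 with cells thinned before the rule. Cd4, which made the split, was not left out of these counts. Not all of the 4 genes were therefore past the fold under either setting. Cd40lg, the helper ligand of CD4 T cells, had 19 UMIs against 1 in anti-PD-1 and 64 against 13 in combination in response, but had too few UMIs in anti-PD-1 to be compared. Of 7 selection genes compared, 1 (Itm2a) was past the fold, and 6 lay above 0 in both libraries, with medians of 1.16 and 0.70.

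Higher in Cd8-only cells was Ctsw, a cathepsin of CD8 and NK cells, at 387 CPM against 135 in anti-PD-1 and 257 against 126 in combination in response, log2 ratios of -1.52 (-2.33 to -0.76) and -1.03 (-1.65 to -0.44). It was past the fold without the cells with UMIs of other cell types too, but had -0.93 in combination in response with at least 2 egress-gene UMIs required. Itgae, the integrin CD103, was at 159 (21 UMIs) against 19.3 (3 UMIs) in anti-PD-1, and at 94.5 (25 UMIs) against 0 in combination in response, too few UMIs to be compared. Runx3, the CD8 lineage factor, had 5 UMIs against 6 in anti-PD-1 and 38 against 8 in combination in response, also too few to be compared in both. The remaining genes were the MHC class II genes Cd74, H2-Aa, H2-Ab1 and H2-Eb1, with log2 ratios from -2.21 to -3.41, and Sec11c, a signal peptidase subunit. None of these 5 was past the fold in both libraries without the cells with UMIs of other cell types, and Cd74 then had 0.50 in anti-PD-1. At least 2 B or plasma cell UMIs were found in 4 Cd4-only and 8 Cd8-only cells in anti-PD-1, and in 4 and 5 in combination in response.

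**Figure D3:**
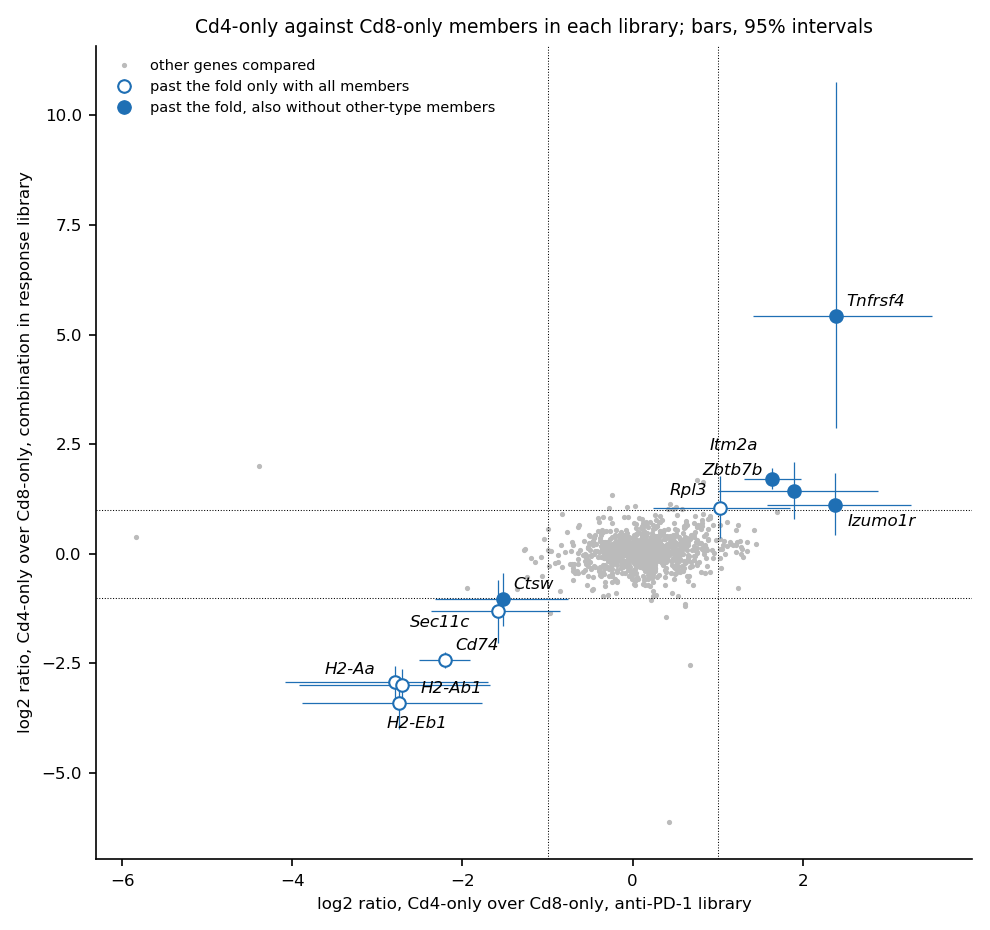
Log2 ratio of Cd4-only over Cd8-only cells for 944 genes less the 3 that made the split, in anti-PD-1 (horizontal) and combination in response (vertical), with 95% intervals and dotted lines at a fold of 1 for the genes past it in both. Filled points (Tnfrsf4, Izumo1r, Itm2a, Zbtb7b and Ctsw) were also past the fold without cells that carried UMIs of other cell types, and open points, such as Cd74, H2-Aa, H2-Ab1 and H2-Eb1, were not.

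T cell receptor variable genes were sparse. The egress-gene cells had 59 Trbv UMIs from 14 of 35 genes in anti-PD-1 and 160 from 20 of 35 genes in combination in response. In anti-PD-1 Trbv12-2 had 23.7% (13.6% to 36.6%) and Trbv2 22.0%, which counting error does not separate. In combination in response Trbv2 had 35.0% (27.6% to 42.9%) and Trbv12-2 8.75%. Of Trav genes, 34 of 130 were found in anti-PD-1, from 80 UMIs, and 56 in combination in response, from 171 UMIs, with Trav14d-3-dv8 leading at 26.2% and 13.5%. UMIs of many variable genes were thus found in both libraries, and whether they came from rearranged receptors was not tested. Near-identical Trav copies make the split among them uncertain.

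The same rule found 599 cells in ERBB2i, 298 in combination and 25 in vehicle, libraries where at most 0.997% of Cd3-positive barcodes had Rag2, Dntt or Ptcra. The comparison with ERBB2i and combination crosses barcode designs, 27 bases in the libraries of the egress-gene cells and 24 in ERBB2i and combination, and these cannot be told apart from the groups. Past the fold in all 4 ratios, of 4020 genes, were 85 (2.11%) that were higher in the egress-gene cells and 121 (3.01%) that were lower. All 6 neuroendocrine genes compared were among the lower ones.

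Itm2a was at 59.3 (43.3 to 79.4) CPM in ERBB2i and 36.5 (19.9 to 61.2) in combination, and after thinning 2.67% and 2.35% of cells had an Itm2a UMI. These levels were near those of double-positive-like cells. Cd2 was at 368 and 281, Ccr9 at 19.8 and 5.21 (2 UMIs), and Zbtb7b at 67.2 and 65.1, each below its level in the egress-gene cells. A Trbc2 UMI was found in 67.4% and 65.4% of the cells in ERBB2i and combination, against 85.3% and 91.7% of the egress-gene cells. In ERBB2i 423 of 599 cells, and in combination 196 of 298, had neither coreceptor. Whether fewer T cell transcripts per cell underlie the lower levels was not tested. Higher in the egress-gene cells were also Trbc1 and Trbc2 of 13 receptor genes, Cd2, Itm2a and Nab2 of 9 selection genes, and Ifit1, Irf7, Irf9 and Zbp1 of 12 interferon genes. Cd44, a marker of antigen-experienced T cells, was lower, at 21.5 and 27.2 CPM against 123 and 125.

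None of the 17 maturity genes and none of the 7 class I genes was past the fold in all 4 ratios. H2-K1, at 2902 in ERBB2i and 2430 in combination, had log2 ratios from -0.58 to 0.26. Gimap3 was at 1181 and 857, above both libraries of the egress-gene cells, but 1 of its 4 ratios was short of the fold at -0.78. Cd5 was at 215 and 159, and its ratio of anti-PD-1 to ERBB2i was 0.93. In vehicle, with 64161 UMIs in 25 cells, Itm2a had 1 UMI and H2-K1 was at 2338 (1979 to 2743).

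Between the 2 libraries of the rule, combination in response was compared with anti-PD-1 in 5854 genes. In combination in response 714 (12.2%) were higher and 277 (4.73%) were lower past the fold, with a median log2 ratio over all genes of 0.23. Centred on that median, 384 were higher and 475 lower. Double-positive-like cells had a median of 0.19 and B cells of -0.20 over the same genes, and their medians are given beside those of the lists.

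Immediate early and heat shock genes were higher in 7 of 9 cases (Dusp1, Fos, Hsp90aa1, Hspa1a, Hspa1b, Jun and Junb), with a median of 2.96, against 1.01 in double-positive-like cells and 3.85 in B cells. Junb, a subunit of AP-1, was at 1546 CPM against 198, and Fos at 498 against 11.5, a log2 ratio of 5.44 (4.45 to 6.66). These genes respond to tissue handling as well as to receptor signals, and the part of handling was not tested. Of the selection list, Nr4a1, Tox and Bcl2l11 of 11 were past the fold, with a median of 0.59, against 1.02 in both double-positive-like cells and B cells. This median was 0.13 with cells thinned before the rule, 0.12 in Cd4-only cells and 0.15 in single-lineage cells, below the median of all genes. Nr4a1, an immediate early gene of receptor signaling, was at 630 against 121, while Itm2a had 0.40 (0.29 to 0.52), Cd5 0.47 and Cd2 -0.35. Nr4a1 had 3.85 in double-positive-like cells and 4.15 in B cells.

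Genes of the double-positive stage were higher in 5 of 8 cases (Aqp11, Arpp21, Ccr9, Satb1 and Tcf12), with a median of 1.21, against 0.75 in double-positive-like cells and 1.21 in B cells. In B cells the 10 listed genes summed to 494 CPM in anti-PD-1 and 558 in combination in response. After thinning, Satb1 was found in 4.90% and 15.8% of these B cells, Ccr9 in 0.35% and 0%, and Cd24a in 10.1% and 5.26%. Whether B cells shared the rise was not tested. Arpp21 had a log2 ratio of 2.51 (1.84 to 3.25), from 20 UMIs in anti-PD-1 and 180 in combination in response. Satb1 had 1.22 (1.10 to 1.35) and Ccr9 1.20 (0.95 to 1.45). Centred on the median of all genes, Satb1 had 0.99 and Ccr9 0.96, so that neither was past the fold. Of the 13 genes in the receptor complex and signaling list, 3 were past the fold, among them Themis (2.10) and Cd28 (1.03, and 0.79 centred), with a median of 0.11, against 0.29 in double-positive-like cells and 0.62 in B cells. Themis was also higher in double-positive-like cells, at 1.82.

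Interferon genes were lower in 5 of 12 cases (Bst2, Ifi27l2a, Ifit3, Isg15 and Ly6a), with a median of -0.82, against -1.42 in double-positive-like cells and -1.63 in B cells. Ifi27l2a was at 736 CPM against 2049, and Isg15 at 140 against 370, a log2 ratio of -1.41 (-1.70 to -1.11). The median was -0.074 in Cd4-only cells and -1.68 in Cd8-only cells, and this difference was not tested. Cell cycle genes were lower in 7 of 9 cases, with a median of -1.78, against -2.02 in double-positive-like cells and -2.54 in B cells, and of -0.89 with cells thinned to 500 UMIs before the rule. Stmn1 was at 292 against 2059 and Top2a at 30.9 against 106. Cells with a Mki67 UMI had been left out by the rule, and Stmn1 stood at 15263 CPM in the tumor cells of anti-PD-1, so the share of free tumor RNA in these values was not tested.

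No gene of the 17 maturity genes (median -0.39) or the 7 class I genes (median -0.13) was past the fold between the 2 libraries. The maturity medians were 0.15 in double-positive-like cells and 0.11 in B cells, and the class I medians -0.17 and -0.53. Ms4a4b had -0.77 (-0.89 to -0.64), H2-K1 -0.58 (-0.67 to -0.49), H2-D1 -0.71 and B2m -0.13. Tcf7 had 0.62, Lef1 0.77 and Bcl2 0.92. Cd40lg had 1.29 and Ikzf2, encoding Helios, had 1.38. Of the checkpoint genes, Pdcd1, the target of anti-PD-1, had 45 and 44 UMIs, at 64.6 CPM in anti-PD-1 and 39.9 in combination in response.

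**Figure D4:**
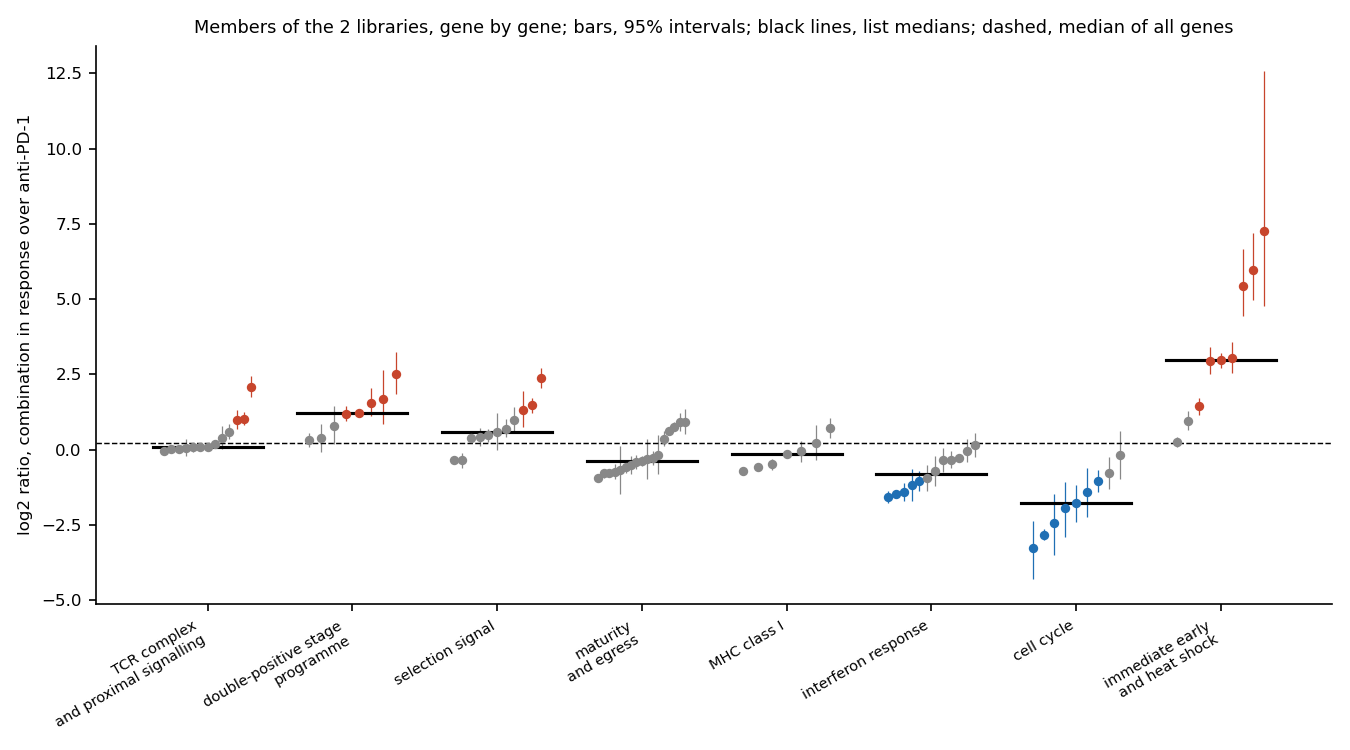
Log2 ratio of combination in response over anti-PD-1 in the egress-gene cells for each compared gene of 8 lists, with 95% intervals, list medians as black lines, and the median of all genes (0.23) dashed. Genes past the fold are red where higher (most of the immediate early and heat shock genes) and blue where lower (most of the cell cycle genes), and all maturity and class I genes are gray.

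By size, the 10 genes with the highest ratio were Ppp1r15a (3.91), Apoe (3.43), Dusp1 (3.04), 2610307P16Rik (3.01), Junb (2.96), Jun (2.94), Taco1 (2.68), Slc9a9 (2.58), Arpp21 (2.51) and Rgs2 (2.43). Ppp1r15a, Dusp1, Junb, Jun and Rgs2 are early response genes, and Apoe, a lipid carrier of macrophages, came from few cells. The 10 with the lowest were Ly6c2 (-5.01), 1110065P20Rik (14 UMIs against 268), Col1a2 (-4.77), Mgp (-4.47), Mt1 (-4.30), Sparc (-3.86), Mt2 (-3.67), Yrdc (-3.47), Col3a1 (-3.22) and Stmn1 (-2.82). Of these, Col1a2, Mgp, Sparc and Col3a1 are fibroblast genes seen in 2 to 4 cells of anti-PD-1. The genes 1110065P20Rik, Mt1, Mt2 and Yrdc were at 2766, 5593, 2203 and 2150 CPM in the tumor cells of anti-PD-1. Combination in response all but lacked tumor cells, and the share of free tumor RNA in these 4 ratios was not tested.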

How the data were processed

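Tumors of 5 groups, 1 library each, were read as single cells on the Singleron SCOPE-chip. The deposited values are counts of UMIs per gene and barcode, 32589 genes, which the authors did not normalize. The methods of the study name CeleScope, and the submitters' processing notes Cell Ranger, Scanpy and mm10, with no version. Groups came from the treatment labels.

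Barcodes with more than 150 genes and a mitochondrial share of at most 8% were kept, and the rule was applied with 1 UMI as its threshold. Counts were summed per pool, and CPM were given with exact 95% Poisson intervals, shares with Clopper-Pearson intervals and log2 ratios with exact conditional intervals. No test was run, since a group holds 1 library. For shares, cells were thinned to 500 UMIs (seed 7). Doublets were scored with Scrublet in scanpy 1.11.5. Scores above 0.25 marked 2.47% of barcodes in anti-PD-1 and 3.02% in combination in response, 10 and 9 of them among the cells described, and were kept except in an alternative. B cells had at least 3 UMIs of Cd79a, Cd79b and Ms4a1 and no Cd3 UMI. The calculation was tested on simulated data. Python 3.11.15, scipy 1.17.1 and pandas 2.3.3 were used.

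The members and the 25 gene lists (210 genes) were chosen with earlier results of these data known. Genes named were those of the lists and, by size, the 10 in each direction with the largest ratio between libraries (at least 100 UMIs in one library and 10 in the other) and between Cd4-only and Cd8-only cells (at least 50 UMIs in each library), leaving out mitochondrial, ribosomal protein, hemoglobin, immunoglobulin, receptor variable and joining, sex-linked and rule genes. Izumo1r, Rpl3, Sec11c, Tfrc, Lztfl1 and Ckb and the class II genes were named after their values were seen, as members of short lists past the fold. The splits by other cell types, single lineage and S1pr1 or Klf2 were chosen after seeing the data. RefSeq names matched 26565 genes. Some genes of the lists, and a split of the cells that used one of them, are not reported here.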

Additional observations from a re-analysis of the deposited data

Results flagged for a closer look

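Some ratios had intervals that left out 0 in opposite directions in anti-PD-1 and combination in response. The difference between the 2 libraries was not tested, and each holds 1 sample. How many of all the genes compared had such intervals is not given here, so no excess is read from the genes named.

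Id3, an inhibitor of E proteins, was higher in Cd4-only than in Cd8-only cells in anti-PD-1 (log2 ratio 1.241, from 67 and 24 UMIs) and lower in combination in response (-0.7789, from 74 and 111 UMIs). Between cells with S1pr1 or Klf2 and cells with neither, Tap1, of the class I peptide transporter, had -0.6192 in anti-PD-1 and 0.8078 in combination in response. Zfp36, which speeds the decay of cytokine RNA, had -0.6681 and 0.5851 in the same split, and Cd52 had -0.1281 and 0.1483. Against double-positive-like cells, Jun had -0.8878 in anti-PD-1 and 2.032 in combination in response, and Hsp90aa1 had -0.3679 and 0.4072.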

How the results depend on the processing

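Of 198 summary values recomputed under the alternatives, 149 stayed within the spread allowed, 49 moved and 0 were labelled reversed. Percentages and gene counts cannot change sign. A list median was labelled reversed only if it changed sign and both its main value and its shift exceeded that spread. With 2 egress-gene UMIs required, the cells were 5.14% and 4.69% of Cd3-positive barcodes in anti-PD-1 and combination in response, Cd4-only cells were 57.6% of single-lineage cells in combination in response, 168 genes were lower in combination in response, and 2 and 3 genes were higher in Cd4-only and Cd8-only cells. With 2 Cd3 UMIs the share was 9.10% in anti-PD-1, 176 genes were lower and the immediate early median was 3.54. Thinned before the rule, the share was 5.88% in combination in response, Cd4-only cells were 44.1% and 31.0%, 165 genes were lower, the selection median was 0.13, the cell cycle median -0.89, and 3 genes were higher in Cd4-only cells. With the lineage set by 2 UMIs, Cd4-only cells were 43.3% and 41.0%.

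Median-centring gave 384 higher and 475 lower genes and a class I median of -0.36. A minimum of 20 UMIs gave 546 lower genes, and 13 and 15 genes by lineage. A minimum of 200 gave 148 higher and 79 lower, and 1 and 1 by lineage. Cd4-only cells gave 165 higher and 88 lower genes and medians of 0.12 for selection, -0.42 for class I and -0.074 for interferon. Cd8-only cells gave 227 and 97, with -0.37 for class I, -1.68 for interferon and 1.95 for immediate early genes. Single-lineage cells gave 416 and 129, with 0.15 for selection and -0.38 for interferon. Without cells that carried UMIs of other cell types, 3 genes were higher in Cd8-only cells and 17 in cells with S1pr1 or Klf2, and the median absolute deviation filters also gave 3. Anti-PD-1 alone gave 38 and 29 genes by lineage, and combination in response alone 49 and 49. The cause was not tested, except that fewer cells or genes enter the smaller sets.

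Of 1073 values of named genes, 983 kept direction and side of the fold, 82 kept the direction alone and 8 changed sign. The 8 were Trgc1 thinned (-0.10), Ms4a1 in single-lineage cells (0.53), Cst3 under the deviation filters (-0.50), and by lineage in combination in response H2-Aa (1.64), H2-Ab1 (0.66) and Cd74 (0.41) under these filters and Sec11c thinned (1.53), and Cd74 in anti-PD-1 without cells of other types (0.50). No paired analysis was possible because each group holds 1 library.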
